A study of Homo sapiens with 9 samples.

Results

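The core cyclins and cyclin-dependent kinases (CDKs) are 10 genes, chosen by symbol: the cyclins CCND2, CCND3, CCNE1, CCNE2, CCNA2 and CCNB1, and the kinases CDK1, CDK2, CDK4 and CDK6. All 10 were among the 30017 rows of the count table, and all 10 were among the 12712 genes with enough counts to be tested. RNA-Seq had been performed on MOLM13 cells, a human acute myeloid leukemia line with monocytic features, 4 days after transduction with pLKO-GFP lentivirus and sorting for GFP. Cells given a control hairpin in that vector (sh-Control) were set against cells given shDDX41 #1 or shDDX41 #2, short hairpin RNAs that target DDX41, a DEAD-box RNA helicase. Each of the 3 groups had 3 libraries, named by the letters A, B and D. Each knockdown group rests on a single hairpin sequence, so the depth of the knockdown and the identity of the hairpin cannot be told apart, and the labels do not say whether the letters mark separate transductions, so p-values measure the spread among these libraries.

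A cyclin binds a CDK and switches on its kinase activity, and the cell passes from phase to phase of its cycle as different pairs form and are destroyed. D-type cyclins with CDK4 or CDK6 begin the phosphorylation of the retinoblastoma protein in G1, E-type cyclins with CDK2 complete it at the entry to S phase, cyclin A2 pairs with CDK2 in S phase and then with CDK1, and cyclin B1 with CDK1 drives mitosis. Transcripts of the E, A and B cyclins and of CDK1 rise and fall with the cycle under E2F, MuvB and NF-Y factors, whereas D-type cyclins follow growth signals and CDK4 and CDK6 are less periodic. The comparison asked which steps of the cyclin sequence differed in transcript level with each hairpin.

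Levels are given in CPM, the counts-per-million scale, in which a gene's count is divided by the total of its library after TMM scaling (a correction for libraries of unlike composition). The libraries held from 16385238 to 20510032 counts. DDX41 was at 113 to 117 CPM in sh-Control, at 9.95 to 12.9 CPM with shDDX41 #1 and at 38.9 to 42.5 CPM with shDDX41 #2, and its level followed the label in every library. Of 11 myeloid markers, 9 averaged at least 1 CPM, including CD33, FLT3, SPI1 and CEBPA, while CD14 and ANPEP reached at most 0.182 and 1.13 CPM. Their summed level ran from 2460 to 2650 CPM over the control libraries, from 2510 to 2620 CPM over those of shDDX41 #1 and from 3390 to 3450 CPM over those of shDDX41 #2. The largest part of the sum was LYZ, at 838 to 1830 CPM over the 9 libraries. The higher sum moves with shDDX41 #2, and its part in the results below was not tested. Of 8 B and T cell markers 2 averaged at least 1 CPM (summed level 241 to 307 CPM, nearly all CD4, which monocytic cells also express), of 6 erythroid markers none did (at most 0.425 CPM) and of 5 epithelial markers 2 did (14.7 to 19.4 CPM, mainly KRT18). MS4A1 and PAX5, which define B cells, and HBB, which defines erythroid cells, had no count in any library. Replicate D of shDDX41 #1 stood apart from its partners, with a chi-square per degree of freedom of 18 and 19.7 where the partners differed by 2.94. The pairs of sh-Control libraries were at 8.23, 10.4 and 8.58, and those of shDDX41 #2 at 2.47 to 3.3.

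Differences were tested with the edgeR quasi-likelihood test and called at a Benjamini-Hochberg adjusted p under 0.05. With shDDX41 #1, 7 of the 10 genes fell and none rose (CCND3, CCNE1, CCNE2, CCNA2, CCNB1, CDK1 and CDK2), while CCND2, CDK4 and CDK6 did not pass the test. The median log2 fold change of the 10 was −0.72, beside 0.01 over all genes tested. The background was high: 47.8% of all tested genes passed an adjusted p of 0.05 in this comparison, 24.1% as lower and 23.7% as higher. For 7 of the 10 genes the 3 libraries with shDDX41 #1 did not overlap those of sh-Control, as was so for 53.1% of all tested genes. With shDDX41 #2, 3 genes fell (CCND2, CCNE1 and CDK2) and CDK6 rose, against 25% of all tested genes called in either direction, 13.4% lower and 11.6% higher. The median of the 10 was −0.16, beside −0.01 over all genes, and 6 of the 10 did not overlap with sh-Control, against 43.8% of all tested genes. Single libraries changed the number of calls with shDDX41 #2. Without sh-Control A there were 6 calls, with CCNB1 and CDK1 added, and without sh-Control D there were 2, CCND2 and CCNE1. The count with shDDX41 #1 was 7 or 8 whichever library was left out, and 7 without its replicate D. In bulk RNA, fewer cells in a phase of the cycle and less transcript per cell cannot be told apart, and this holds for every change below.

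**Figure D1:**
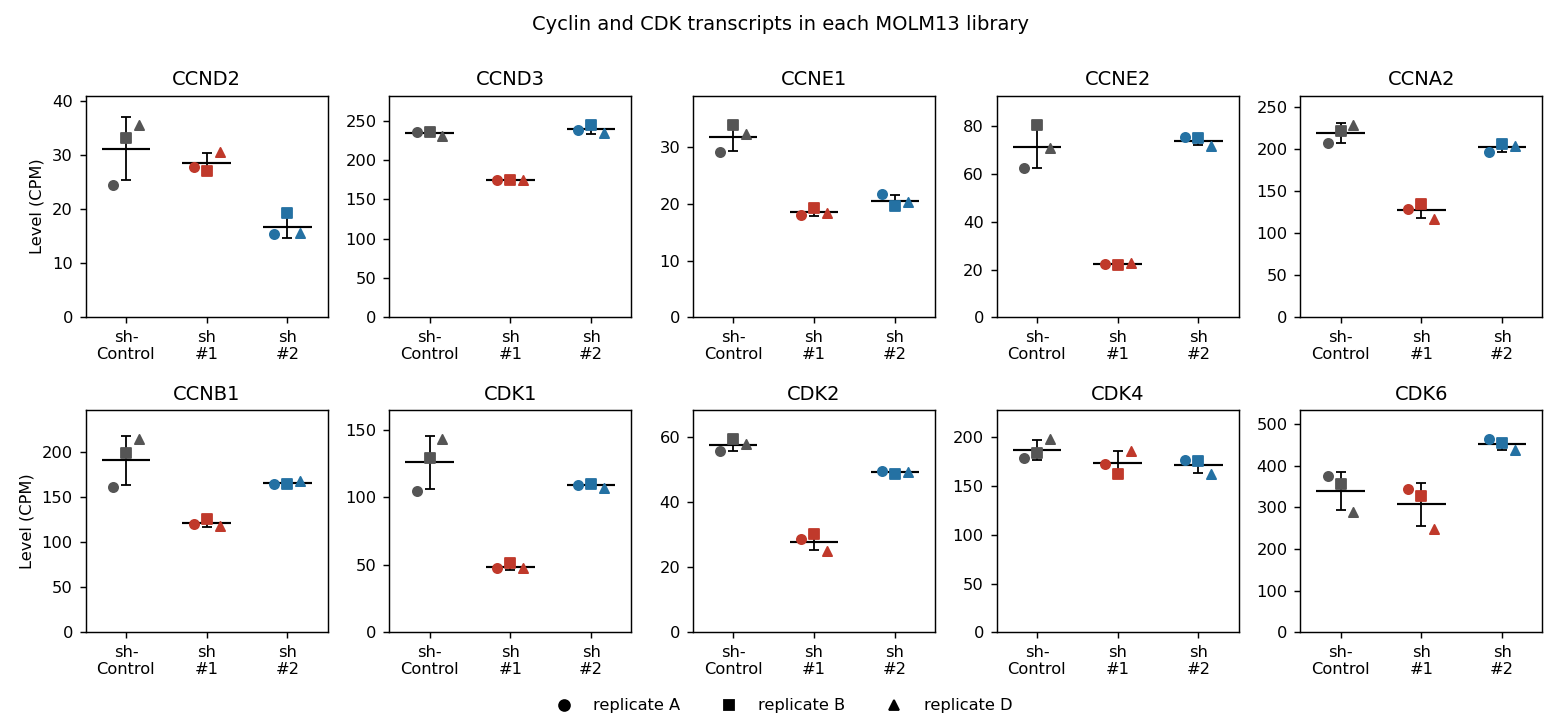
Level in CPM (linear axis from 0) of each cyclin and CDK transcript in the 9 libraries, with symbols for replicates A, B and D and a bar at the mean with its SD. CCNE2 sits near 22 CPM in the 3 shDDX41 #1 libraries and above 62 CPM in the other 6, whereas CCND2 is lowest and CDK6 highest with shDDX41 #2.

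Among the D-type cyclins, which couple growth signals to CDK4 and CDK6, the 2 genes moved with different hairpins. CCND3 (chr6:41934933-42050357, minus strand, GRCh38 in GENCODE 29, as for all genes below) was at 236, 236 and 231 CPM in sh-Control A, B and D, at 175, 174 and 174 CPM with shDDX41 #1, and at 238, 245 and 234 CPM with shDDX41 #2. The shDDX41 #1 libraries lay below all others and close to each other. CCND3 fell by 25.4% with shDDX41 #1 (log2 fold change −0.42, SE 0.0561, adjusted p 2.25e-05) and was at 0.03 on the log2 scale with shDDX41 #2 (95% interval −0.09 to 0.15, adjusted p 0.723). CCND2 (chr12:4273772-4305350, plus strand) was at 24.6, 33.2 and 35.7 CPM in sh-Control, at 27.8, 27.1 and 30.6 CPM with shDDX41 #1 and at 15.4, 19.3 and 15.7 CPM with shDDX41 #2. Here the shDDX41 #2 libraries were the low ones, and those of shDDX41 #1 lay inside the range of sh-Control. CCND2 fell by 46.1% with shDDX41 #2 (−0.89, SE 0.129, adjusted p 1.83e-04), and its value with shDDX41 #1 was −0.13 (95% interval −0.40 to 0.14, adjusted p 0.412). The latter passed the threshold narrowly without sh-Control A, the lowest control library (−0.28, adjusted p 0.0497), and ran from −0.28 to −0.02 over the libraries left out.

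The E-type cyclins, both partners of CDK2 at the entry to S phase, also parted. CCNE1 (chr19:29811898-29824308, plus strand) was at 29.1, 33.9 and 32.2 CPM in sh-Control, at 18, 19.3 and 18.3 CPM with shDDX41 #1, and at 21.7, 19.6 and 20.2 CPM with shDDX41 #2. Every knockdown library was below every control library. CCNE1 fell by 41.6% with shDDX41 #1 (−0.78, SE 0.0874, adjusted p 4.69e-06), and it fell by 35.4% with shDDX41 #2 (−0.63, SE 0.0861, adjusted p 1.04e-04). CCNE2 (chromosome 8, minus strand) was at 62.5, 80.5 and 70.9 CPM in sh-Control, at 22.4, 22 and 22.8 CPM with shDDX41 #1, and at 75.1, 74.8 and 71.4 CPM with shDDX41 #2. The 3 shDDX41 #1 libraries stood far below the other 6, among which control and shDDX41 #2 overlapped. CCNE2 fell by 68.6% with shDDX41 #1, the largest change of the 10 genes (−1.67, SE 0.0878, adjusted p 3.25e-09). With shDDX41 #2 the value was 0.05 (95% interval −0.12 to 0.22, adjusted p 0.697), and it changed sign without sh-Control A (−0.04). In GENCODE 29, 37% of the merged exon bases of CCNE2 are shared with INTS8 on the opposite strand, and whether counting used the strand is not stated. INTS8 itself went from 177 to 121 CPM with shDDX41 #1 (−0.54, adjusted p 1.32e-05) and was at 174 CPM with shDDX41 #2. Its part in the CCNE2 counts was not tested. Smaller shares of exon bases overlap genes on the opposite strand in CDK2 (14.5%, AC025162.1) and CCNA2 (9.08%, EXOSC9), and CCND2 shares 13.8% with AC008012.1 on its own strand, which a strand setting would not separate.

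The genes of S phase and mitosis, CCNA2, CCNB1 and CDK1, fell together with shDDX41 #1. CCNA2 (chr4:121816444-121823933, minus strand), the partner of CDK2 and then of CDK1, was at 207, 221 and 229 CPM in sh-Control, at 129, 135 and 117 CPM with shDDX41 #1, and at 196, 206 and 204 CPM with shDDX41 #2. CCNB1 (chr5:69167010-69178245, plus strand), the mitotic cyclin, was at 161, 199 and 214 CPM, at 120, 126 and 118 CPM, and at 165, 165 and 168 CPM in the same order of groups. CDK1 (chr10:60778331-60794852, plus strand), the mitotic kinase, was at 105, 129 and 143 CPM, at 47.5, 51.2 and 47.3 CPM, and at 109, 110 and 107 CPM. For each of the 3 genes the shDDX41 #1 libraries were below all others, and sh-Control A was the lowest control library. With shDDX41 #1, CCNA2 fell by 42.1% (−0.79, SE 0.0685, adjusted p 3.43e-07), CCNB1 fell by 36.6% (−0.66, SE 0.0853, adjusted p 1.88e-05) and CDK1 fell by 61.3% (−1.37, SE 0.0944, adjusted p 3.72e-08). None of the 3 was called with shDDX41 #2, where the values were −0.12 for CCNA2 (95% interval −0.26 to 0.03, adjusted p 0.227), −0.21 for CCNB1 (−0.39 to −0.03, adjusted p 0.0887) and −0.21 for CDK1 (−0.40 to −0.02, adjusted p 0.106). Without sh-Control A, CCNB1 (−0.32, adjusted p 0.00399) and CDK1 (−0.32, adjusted p 0.00565) were called with shDDX41 #2. CCNB1 was also called without shDDX41 #1 D (adjusted p 0.0480), a library outside that comparison. Without sh-Control D, the highest control, CCNB1 and CDK1 with shDDX41 #2 were at −0.12 and −0.10, their smallest values over the libraries left out.

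The sequence before the transcription start is shown for CCNA2, CCNB1, CDK1 and CCNE1, the members best known for E2F or cell cycle elements in their promoters. Sequences come from the RefSeq table for GRCh38.p14, from the 250 bases before the start, and are written 5′ to 3′ on the strand of the gene. Capitals mark matches to 6 motifs searched on both strands: CCAAT (the NF-Y box), TTTGAA and TTCGAA (forms of the cell cycle homology region bound by MuvB complexes), and TTTGGCGC, TTTCGCGC and TTCCCGCC (forms of the E2F site). None of the printed matches overlap. The windows used here all run into the annotated gene. For CCNA2 and CCNE1 only the bases outside the gene are given, so those nearest the start are not printed. For CCNB1 and CDK1 stretches of 30 bases around motifs are given.
CCNA2, chr4:121823934-121824133, minus strand: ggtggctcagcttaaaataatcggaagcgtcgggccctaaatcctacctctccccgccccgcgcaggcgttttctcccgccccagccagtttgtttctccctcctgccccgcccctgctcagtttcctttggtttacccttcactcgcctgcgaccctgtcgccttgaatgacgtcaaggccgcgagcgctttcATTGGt
CCNE1, chr19:29811741-29811897, plus strand: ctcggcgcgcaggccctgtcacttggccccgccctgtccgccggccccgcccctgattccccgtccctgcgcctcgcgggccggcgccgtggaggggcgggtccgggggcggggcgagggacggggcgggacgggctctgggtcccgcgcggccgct
CCNB1 site 1, chr5:69167050-69167079, plus strand: cgaccggcagccgCCAATgggaagggagtg
CCNB1 site 2, chr5:69167082-69167111, plus strand: tgccacgaacaggCCAATaaggagggagca
CDK1 site 1, chr10:60778341-60778370, plus strand: tcctctttcTTTCGCGCtctagccacccgg
CDK1 site 2, chr10:60778393-60778422, plus strand: ggctctgATTGGctgcTTTGAAagtctacg
CDK1 site 3, chr10:60778448-60778477, plus strand: ccctttagcgcggtgagTTTGAAactgctc

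CCNA2 held 1 CCAAT box, 56 to 52 bases before the start, and CCNB1 held 2, the nearer at 55 to 51 bases. Neither window held a match to the other motifs. Only the 6 motifs named were searched, so a window without a match may hold other forms of these sites. The window of the downstream CDK1 start held 2 CCAAT boxes, 2 TTTGAA matches and a TTTCGCGC match. Its CCAAT box at 46 to 42 bases before the start is not in the printed stretches. The window of the upstream CDK1 start held 1 CCAAT box and 1 TTTGAA match. The CCNE1 window held none of the 6 motifs, which says only that these letters are not in it, and 81.2% of its bases were G or C. Over all 35116 windows of this length in the table, 32% held CCAAT at least once and 9.53% at least 2 times. TTTGAA was held at least once by 13.3% and at least 2 times by 1.72%, and 0.439% held TTTCGCGC. The table held windows for 7 of the 10 genes, 11 windows in all, and none for CCND2, CCNE2 or CDK2. Of the other members, CCND3 had 1 CCAAT box in 2 of its 3 windows, and CDK4 and CDK6 had no match in theirs. These letters describe the windows only and were not related to the changes by a test.

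CDK2 (chr12:55966769-55972784, plus strand), the kinase of S phase entry, was at 55.6, 59.3 and 58 CPM in sh-Control, at 28.6, 30.2 and 24.9 CPM with shDDX41 #1 and at 49.6, 48.7 and 49.3 CPM with shDDX41 #2. The groups formed 3 separate levels with no overlap. CDK2 fell by 51.6% with shDDX41 #1 (−1.05, SE 0.0774, adjusted p 7.56e-08) and fell by 14.6% with shDDX41 #2 (−0.23, SE 0.0741, adjusted p 0.0347). The smaller fall was near the threshold. It was lost under upper quartile scaling (−0.19, adjusted p 0.0614), with no filter on low counts (0.0531) and without either of the control libraries B (0.125) and D (0.0787), library A of shDDX41 #1 (0.0516) or any library of shDDX41 #2 (0.0862 without A, 0.108 without B and 0.0932 without D).

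The G1 kinases CDK4 and CDK6, which bind the D-type cyclins, did not follow CDK1 and CDK2. CDK4 (chr12:57747727-57756013, minus strand) was at 179, 184 and 198 CPM in sh-Control, at 173, 162 and 186 CPM with shDDX41 #1 and at 177, 176 and 162 CPM with shDDX41 #2. It was not called in any comparison, at −0.11 with shDDX41 #1 (95% interval −0.26 to 0.04, adjusted p 0.216) and −0.12 with shDDX41 #2 (−0.27 to 0.02, adjusted p 0.211). Both intervals include the value called for CDK2 with shDDX41 #2 (−0.23). In GENCODE 29, 43.2% of the merged exon bases of CDK4 are shared with TSPAN31 on the opposite strand, which rose with both hairpins (0.56 and 0.49, adjusted p 5.89e-04 and 0.00378) from 11.3 CPM to 16.7 and 15.9 CPM. Its part in the CDK4 counts was not tested. CDK6 (chr7:92604921-92836594, minus strand) was at 374, 355 and 288 CPM in sh-Control, at 344, 328 and 249 CPM with shDDX41 #1 and at 463, 454 and 437 CPM with shDDX41 #2. The shDDX41 #2 libraries were above all others, and replicate D was the lowest library of each group. CDK6 rose by 33.1% with shDDX41 #2 (0.41, SE 0.109, adjusted p 0.0124), a call lost without sh-Control D (0.31, adjusted p 0.0566). With shDDX41 #1 its value was −0.15 (95% interval −0.38 to 0.09, adjusted p 0.289), which ran from −0.25 to −0.01 over the libraries left out.

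**Figure D2:**
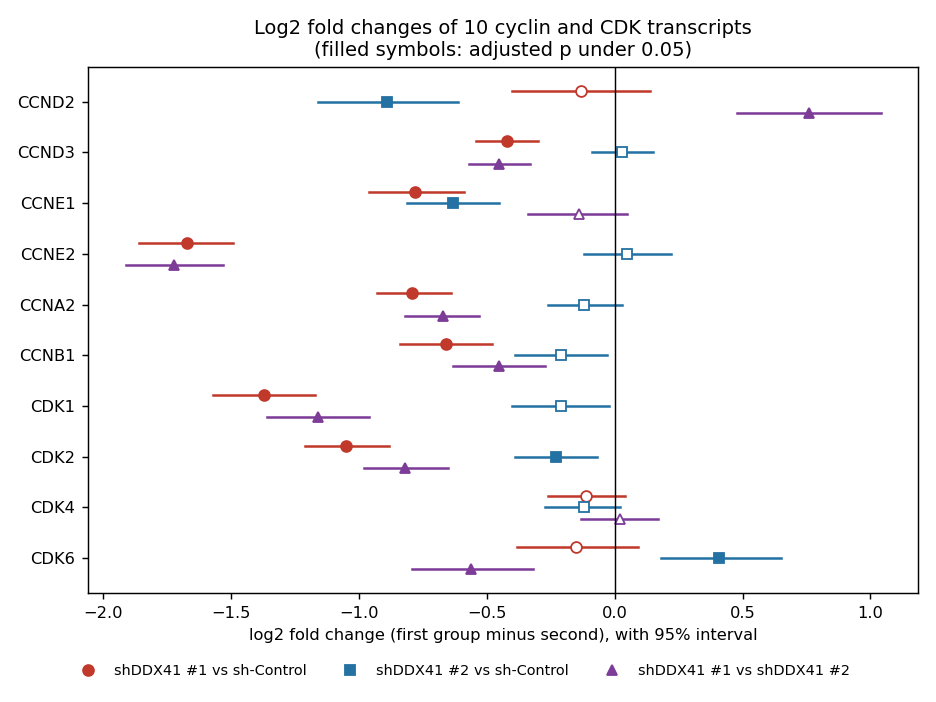
Log2 fold change of each gene with its 95% interval, for shDDX41 #1 and shDDX41 #2 against sh-Control and for shDDX41 #1 against shDDX41 #2. Filled symbols passed an adjusted p under 0.05, which 7, 4 and 8 of the 10 genes did, and CCND2 and CDK6 show their calls with shDDX41 #2 rather than shDDX41 #1.

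The hairpins were then compared directly, since an effect called with 1 hairpin and not the other is not thereby shown to differ. The test called 8 of the 10 genes, against 48.8% of all tested genes. With shDDX41 #1, 7 were lower than with shDDX41 #2 and CCND2 was higher (0.76, SE 0.130, adjusted p 2.27e-04). In all genes tested, 24.2% were lower and 24.6% higher. The largest differences were in CCNE2 (−1.72, SE 0.0877, adjusted p 2.51e-09), CDK1 (−1.16, SE 0.0944, adjusted p 1.86e-07) and CDK2 (−0.82, SE 0.0777, adjusted p 8.29e-07). CCNA2 (−0.67), CDK6 (−0.56), CCND3 (−0.45) and CCNB1 (−0.45) followed, with adjusted p of at most 6.61e-04. CCNE1 was not called (−0.14, 95% interval −0.34 to 0.05, adjusted p 0.197), although the 3 libraries of each group did not overlap, as was so for 57.7% of all tested genes. CDK4 was at 0.02 (95% interval −0.13 to 0.17, adjusted p 0.865), and its sign turned without shDDX41 #1 D (−0.03) or shDDX41 #2 D (−0.02). The 8 calls held whichever library was left out. Both comparisons with sh-Control used the same control libraries, so their values are given side by side and were not correlated.

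Ratios of members within a library were compared next, because the length of each gene and the scaling of the library cancel in the change of a ratio. In 8 pairs and 3 comparisons, 24 tests in all, the exact two-sided permutation test of 3 against 3 libraries cannot give a p under 0.1, and after adjustment the smallest was 0.141, so none could pass. The log2 ratio of CCNE1 to CCNE2 was −1.16 ± 0.0764 (SD, n = 3) in sh-Control, −0.27 ± 0.0746 with shDDX41 #1 and −1.84 ± 0.0754 with shDDX41 #2. The balance of the E-type cyclins thus moved up with shDDX41 #1 by 0.89 and down with shDDX41 #2 by 0.68, each several times the SD of the libraries. The ratio of CCND2 to CCND3 was −2.92 ± 0.296, −2.61 ± 0.0925 and −3.83 ± 0.152 in the same order, a difference of 1.22 between the hairpins. CDK4 to CDK6 was −0.85 ± 0.274 in sh-Control and −0.81 ± 0.337 with shDDX41 #1, which overlapped, and −1.40 ± 0.0302 with shDDX41 #2, below both. CDK1 to CDK2 was 1.11 ± 0.195 in sh-Control, 0.80 ± 0.106 with shDDX41 #1, where 1 library overlapped the control range, and 1.14 ± 0.0296 with shDDX41 #2. CCNA2 to CCNE1, cyclins of successive phases, was 2.78 ± 0.0704 in sh-Control and 2.77 ± 0.0863 with shDDX41 #1, where both genes fell, and 3.30 ± 0.113 with shDDX41 #2, where CCNE1 fell. CCNB1 to CCNA2 overlapped with sh-Control for each hairpin (differences 0.14 and −0.08, exact permutation p 0.2 and 0.4).

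**Figure D3:**
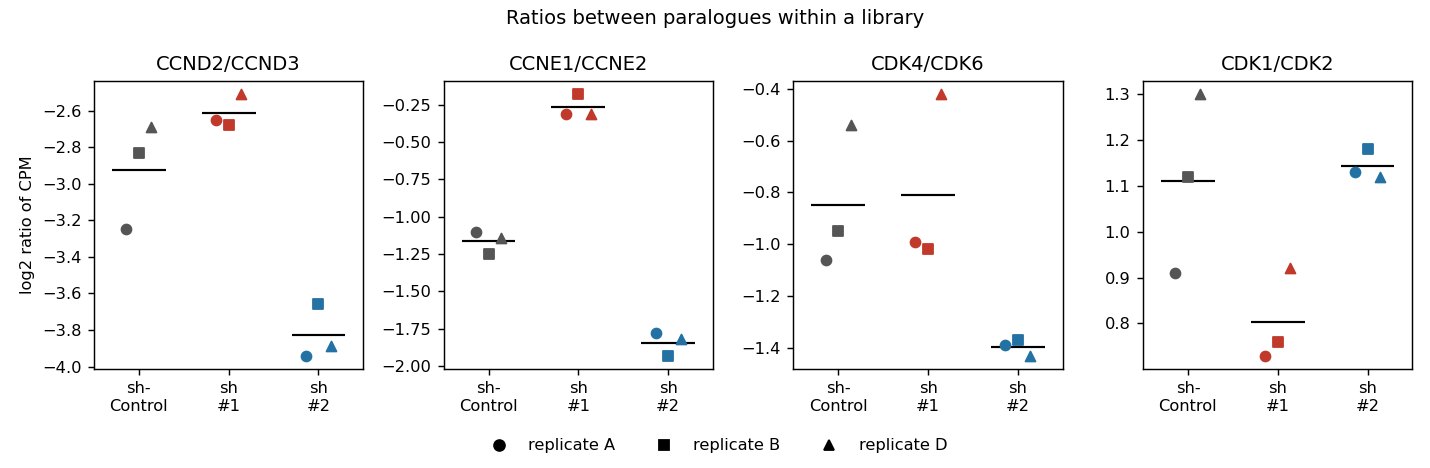
Log2 ratio of CPM for 4 of the 8 pairs in each library (linear axes that do not start at 0), with replicates A, B and D as symbols and a bar at the group mean. CCNE1/CCNE2 separates the 3 groups, with means of −1.16, −0.27 and −1.84, while CDK4/CDK6 of shDDX41 #1 overlaps that of sh-Control, with replicate D the highest library of both.

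Levels of different genes were compared per length, as CPM per kilobase of merged exons in GENCODE 29. In sh-Control the order was CCNA2 (78.3 ± 3.98 CPM per kilobase, SD, n = 3), CCNB1 (74.8 ± 10.7), CDK4 (59 ± 3.11), CCND3 (40.4 ± 0.498), CDK1 (32 ± 4.89), CDK6 (27.7 ± 3.68), CCNE2 (16.2 ± 2.05), CDK2 (14.8 ± 0.482), CCNE1 (12.4 ± 0.954) and CCND2 (4.35 ± 0.814). The libraries overlapped between CCNA2 and CCNB1, between CDK1 and CDK6, and between CCNE2 and CDK2, so those neighbours did not differ beyond their spread. CCND3 was thus the higher of the 2 D-type cyclins in each group, and CCND2 the lowest of the 10. With shDDX41 #1, CDK4 came first (54.8 ± 3.79), ahead of CCNB1 (47.4 ± 1.63) and CCNA2 (45.4 ± 3.28), which overlapped, and CCNE2 (5.09 ± 0.091) lay below CCNE1 (7.27 ± 0.267). With shDDX41 #2 CCNA2 was first (72.2 ± 1.89). CDK6 lay above CDK1 with both hairpins, at 25.0 ± 4.15 against 12.4 ± 0.559 with shDDX41 #1 and at 36.8 ± 1.08 against 27.6 ± 0.389 with shDDX41 #2. The order depends on the transcripts counted as the gene. With the length of the longest coding transcript, CCND3 came first in sh-Control (97.9), followed by CDK4 (90.1), CCNB1 (88.2) and CCNA2 (78.3), and CCND2 stayed last (4.81). The CCNB1 libraries overlapped those of CCND3, CDK4 and CCNA2 by that length. By that length CCND3 was also first with shDDX41 #2 (99.8), and CDK4 was first with shDDX41 #1 (83.7). CDK6 and CDK1 overlapped with shDDX41 #1 (means 26.4 against 25.0), and CDK6 lay below CDK1 with shDDX41 #2 (38.9 against 55.8).

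**Figure D4:**
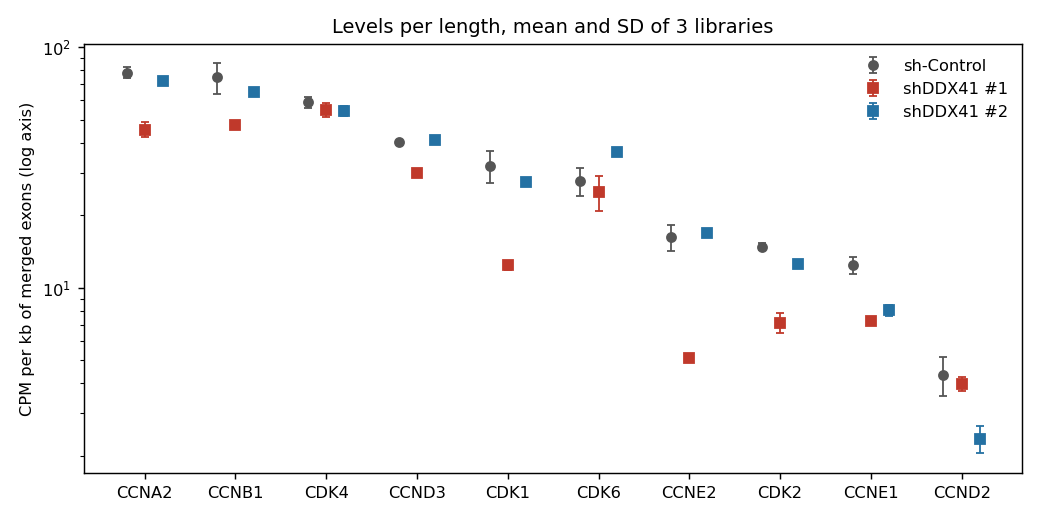
CPM per kilobase of merged exons (log axis), mean and SD of 3 libraries, with the genes ordered by their level in sh-Control. CCNA2 and CCNB1 lead in sh-Control at 78.3 and 74.8, CDK4 leads with shDDX41 #1 at 54.8, and CCND2 is last in all 3 groups.

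The spread among replicates differed between members. In sh-Control the SD was 18.7% of the mean for CCND2, 15.5% for CDK1, 14.1% for CCNB1, 13.2% for CDK6 and 12.6% for CCNE2, and 1.28% for CCND3. With shDDX41 #1 it was 16.6% for CDK6, 9.85% for CDK2 and at most 7.21% for the other members, with CCND3 at 0.241%. With shDDX41 #2 it was 13% for CCND2 and at most 5.37% for the other members. Over the 9 libraries, which share the group structure, the Pearson r of log2 CPM was at least 0.95 between any of CCNA2, CCNB1, CDK1 and CDK2. CCND3 and CCNE2 had an r of 0.99 with each other and of at least 0.95 with CCNA2, CDK1 and CDK2. With CCNB1 they had an r of 0.86 and 0.91. CCND2 and CDK6 had an r of −0.84 with each other, and CDK4 no r above 0.60 with any member. Among the 8845 other genes with a mean of at least 10 CPM, the pattern nearest to CCNA2 was that of BUB1, a mitotic checkpoint kinase (r = 0.9969), and the nearest to CDK1 was that of PRC1, a protein of the central spindle (0.9965). Close behind came KCTD9 for CCNA2 (0.9961) and UBA6 for CDK1 (0.9963). CDK2 was nearest to TMEM194A (0.9976), followed by PLK4, the kinase of centriole duplication (0.997). CCNE2 was nearest to SPCS3 (0.9978), followed by MELK, a mitotic kinase (0.9968). CCND3 was nearest to TIMELESS, a replication fork protein (0.9964), followed by NRAS (0.9962). CDK6 was nearest to IL12RB2 and KAT6A (0.991 each), CCND2 to DIMT1 (0.9889) and CCNE1 to RNFT1 (0.9887). The nearest to CCNB1 was NUP43 (0.9875), and CDK4 had the least close neighbour, POLR3K (0.9542). These are descriptions over 9 libraries in 3 groups, where genes whose group means are spaced alike can score high.

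The genes that act on cyclins and CDKs were described from lists, and the counts below are to be read against the shares of all tested genes, 24.1% lower and 23.7% higher with shDDX41 #1 and 13.4% lower and 11.6% higher with shDDX41 #2. Of 9 tested activators and partners of CDKs, 7 fell with shDDX41 #1 and none rose (median −0.63), and 3 fell with shDDX41 #2 (median −0.11). CDC25A, the phosphatase that activates CDK2, was at 77.6 ± 4.25 CPM in sh-Control, 47 ± 2.60 CPM with shDDX41 #1 (−0.72, adjusted p 1.02e-06) and 32 ± 0.973 CPM with shDDX41 #2 (−1.28, adjusted p 1.54e-08). It was thus lower with the weaker knockdown, and the hairpins differed by 0.56 (adjusted p 1.81e-05). MNAT1, a subunit of the CDK-activating kinase, fell with shDDX41 #1 (−1.03, adjusted p 3.18e-07) and was at 0.17 with shDDX41 #2 (adjusted p 0.137). CKS2, a small subunit that binds CDKs, fell with both (−0.19 and −0.39, adjusted p 0.0184 and 3.50e-04).

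The kinases that hold CDKs inactive fell with shDDX41 #1 as well. PKMYT1, which phosphorylates CDK1 at the membrane, went from 52.7 ± 2.01 to 16.5 ± 2.14 CPM (−1.68, adjusted p 4.67e-09), and WEE1, its nuclear counterpart, from 66.9 ± 1.42 to 46.2 ± 1.98 CPM (−0.53, adjusted p 1.06e-05). With shDDX41 #2 neither was called (−0.23 and −0.06, adjusted p 0.0553 and 0.495). Of 5 tested CDK inhibitor genes, 1 rose and 3 fell with shDDX41 #1, and 2 rose and 1 fell with shDDX41 #2. CDKN1B, which encodes the inhibitor p27 of cyclin E with CDK2, rose with both hairpins. It averaged 85.8 ± 2.43 CPM in control cells and 116 ± 10.7 CPM with shDDX41 #1 (0.44, adjusted p 2.00e-04), and shDDX41 #2 libraries averaged 113 ± 5.58 CPM (0.39, adjusted p 0.0014). CDKN3, a phosphatase of CDKs that is itself expressed in dividing cells, fell with both (−1.19 and −0.34, adjusted p 1.48e-08 and 0.00323). CDKN1A fell with shDDX41 #1 (−0.22, adjusted p 0.0455) and was not called with shDDX41 #2 (−0.12, adjusted p 0.359). CDKN2D fell with shDDX41 #1 (−0.60, adjusted p 2.01e-04) and rose with shDDX41 #2 (0.35, adjusted p 0.0144). CDKN2C was called with neither (−0.08 and −0.17, adjusted p 0.355 and 0.0767).

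Of 8 other tested cyclins, 5 fell and 2 rose with shDDX41 #1, and 1 fell and 1 rose with shDDX41 #2. CCNB2, the second B-type cyclin, fell with shDDX41 #1 (−0.77, adjusted p 4.64e-07) and was at −0.11 with shDDX41 #2 (adjusted p 0.249), values close to those of CCNA2. CCNA1, the A-type cyclin of germ cells and some leukemias, moved in opposite directions. Its control mean of 26.1 ± 0.789 CPM compares with 18.8 ± 1.14 CPM for shDDX41 #1 (−0.47, adjusted p 2.97e-04) and 46.9 ± 2.85 CPM for shDDX41 #2 (0.85, adjusted p 2.88e-06). CCNG1 rose with shDDX41 #1 (0.69, adjusted p 7.01e-06), and CCNJ fell with both (−0.52 and −0.57, adjusted p 8.32e-04 and 0.00115). Of 23 tested genes of cyclin degradation, 12 fell and 3 rose with shDDX41 #1, where 24.1% of all tested genes fell and 23.7% rose, and 7 fell and 1 rose with shDDX41 #2, where 13.4% fell and 11.6% rose. UBE2S, the ubiquitin-conjugating enzyme of the anaphase-promoting complex, fell with both (−0.81 and −0.71, adjusted p 3.56e-07 and 5.82e-06), as did FBXO5, an inhibitor of that complex (−0.93 and −0.22, adjusted p 3.88e-08 and 0.0180), and CUL1, the scaffold of the SCF ligases (−0.52 and −0.25, adjusted p 7.92e-06 and 0.00824).

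The cyclins and CDKs of transcription, which share the fold of the family but act on RNA polymerase II, were described in the same way. Of 15 tested, 3 fell and 2 rose with shDDX41 #1 (median −0.05), and 1 fell and 1 rose with shDDX41 #2 (median −0.04). The 5 and 2 calls of 15 stand beside 47.8% and 25% of all tested genes called in these comparisons. Between the hairpins, 5 were higher and 4 lower with shDDX41 #1, beside 48.8% of all tested genes called. Whether these shares differ from those of all genes was not tested. CCNC, the cyclin of the Mediator kinase, fell with shDDX41 #1 (−0.42, adjusted p 3.93e-04), and CCNT2, a partner of CDK9, rose (0.35, adjusted p 0.00154). CDK19, a Mediator kinase, rose with shDDX41 #2 (0.47, adjusted p 2.14e-04) and CCNL2 fell (−0.48, adjusted p 0.0158). Of 6 other tested CDK family kinases, 3 fell and 1 rose with shDDX41 #1 and 1 fell with shDDX41 #2. CDK16 fell with both hairpins (−0.49 and −0.42, adjusted p 2.01e-04 and 0.00198), and CDK17 (−0.60, adjusted p 1.07e-04) and CDK14 (−0.84, adjusted p 0.00283) fell with shDDX41 #1.

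**Figure D5:**
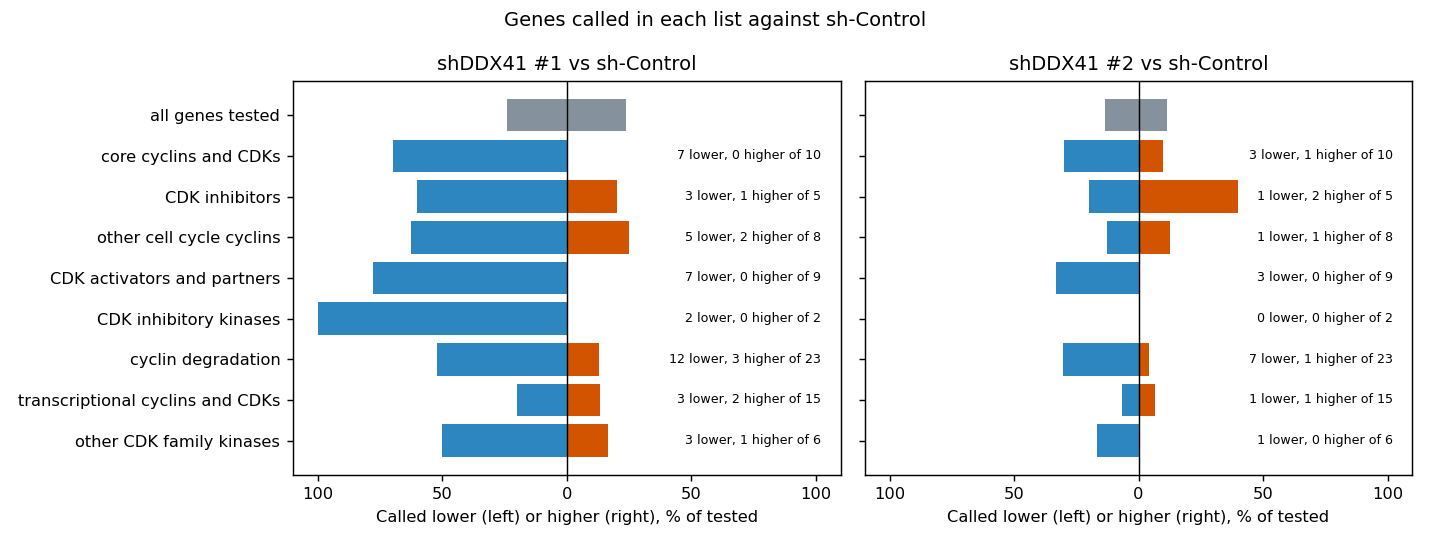
Share of tested genes in each list called lower (left, blue) or higher (right, orange) against sh-Control for shDDX41 #1 and shDDX41 #2, with the counts written beside the bars and all tested genes in grey. The core cyclins and CDKs show 7 lower of 10 with shDDX41 #1 and 3 lower and 1 higher with shDDX41 #2.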

How the data were processed

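Libraries were made from polyadenylated RNA of the sorted cells. The library kit was stranded per the labels, while the methods of the study name an unstranded kit of the same family. The submitters' processing notes name FastQC 0.11.7, HISAT2 2.0.5 and featureCounts 1.5.2, with the builds hg38 and mm10. The annotation, the strand setting and the treatment of multi-mapped reads are not given in the sources used here. The authors deposited 1 table of raw counts per gene symbol for 9 libraries, and 0 columns were left unmapped.

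The tests were run with edgeR 4.0.16 under R 4.3.3. After filterByExpr (minimum count 10) and TMM scaling, the 3 groups were fitted together by quasi-likelihood over the 9 libraries. P-values are two-sided and Benjamini-Hochberg adjusted over the 12712 genes of each contrast, with calls at an adjusted p under 0.05. The SE is the log2 fold change divided by the square root of F. The biological coefficient of variation was 0.0768. Log2 ratios used a prior count of 2. Exon lengths, overlaps and gene positions came from GENCODE 29 (GRCh38). The scripts were tested on simulated data.

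The genes and lists were chosen with earlier results of these data known. All 10 genes were named. In each list the 2 tested genes with the smallest adjusted p against sh-Control for each hairpin were named. The other tested CDK inhibitors, CDKN1A, CDKN2C and CDKN2D, were named outside that rule. For likeness at most the 2 genes with the highest r for each member were named. Alternatives were other scalings (DESeq2 size factors, upper quartile, library size), other filters, the DESeq2 1.42.0 Wald test, limma 3.58.1 voom, only the 6 libraries compared, a replicate block, each library left out, an adjusted p under 0.01, and a prior count of 0.5. The length of the longest coding transcript was added after the data were seen.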

Additional observations from a re-analysis of the deposited data

Results flagged for a closer look

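For 3 members the sign of the value against sh-Control differed between the hairpins, at least 1 of the values was called, and the direct comparison of shDDX41 #1 with shDDX41 #2 was called by the edgeR quasi-likelihood test. CCNE2 differed by −1.72 on the log2 scale (adjusted p 2.51e-09), with −1.67 for shDDX41 #1 and 0.05 for shDDX41 #2. CDK6 differed by −0.56 (adjusted p 6.61e-04), with −0.15 and 0.41. CCND3 differed by −0.45 (adjusted p 1.10e-05), with −0.42 and 0.03. In each case the value of the other hairpin was not called, so no member was called in opposite directions. Groups of 3 libraries are too small for a test of single outlying libraries.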

How the results depend on the processing

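The 7 calls with shDDX41 #1 and the 8 between the hairpins stayed at 7 to 8 and at 8 under every alternative run. The 4 calls with shDDX41 #2 were 3 with upper quartile factors or no filter on low counts and 2 at an adjusted p under 0.01, and ran from 2 (without sh-Control D) to 6 (without sh-Control A) over the libraries left out. Values near 0 changed sign for CCNE2 with shDDX41 #2 (−0.04 without sh-Control A, up to 0.15 without sh-Control B) and for CDK4 between the hairpins (−0.03 without shDDX41 #1 D, −0.02 without shDDX41 #2 D, up to 0.06 without shDDX41 #1 B). The cause was not tested. The differences in log2 ratios moved by less than the larger SD of the 2 groups compared under each alternative. Over all genes, the calls with shDDX41 #2 ran from 2054 without shDDX41 #2 B to 4248 without shDDX41 #1 D, and were 1670 at an adjusted p under 0.01, against 3174.

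Replicate letters were shared between groups. Deviations from the group means correlated between libraries of the same letter by −0.057 to 0.243, above 0.1 in 2 of 9 pairs. Between libraries of other letters the range was −0.184 to 0.066, above 0.1 in 0 of 18 pairs. Same-letter pairs of sh-Control and shDDX41 #1 were at 0.073, 0.158 and 0.243, and those with shDDX41 #2 ran from −0.057 to 0.023. The closest library of another group had the same letter in 9 of 18 cases. The main test did not pair the libraries by letter, and a block by letter was run as an alternative. With the letter as a replicate block, 7, 4 and 8 members were called, as without it. Among all genes 6351, 3570 and 6503 were called with the block, against 6078, 3174 and 6204 without it. Each member had at least 259 counts in every library.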
